A study of Mus musculus with 20 samples.

Results

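The T cell receptor (TCR) repertoires of CD8+ T cells were compared between mice that lack β5t (β5t-KO) and wild-type (WT) mice. The comparison used 8 of the 20 samples of the series, β5t-KO replicates 1 to 4 and WT replicates 1 to 4, each an individual mouse with a TCRα and a TCRβ clone table. Replicate 5 of both groups was left out because its libraries held almost no clones. All mice were males of 9 to 12 weeks on the C57BL/6 background, and β5t-KO mice lack the gene product throughout the animal rather than in a chosen cell type. The labels name lymph nodes as the tissue and TCRbeta high CD4-CD8+ T cells as the cell type, whereas the protocol names lymph nodes and spleens, with a sort purity of over 98%. Libraries of TCR transcripts carry no reads from Psmb11, the gene for β5t, or from Cd8a, so neither the genotype nor the sorted cell type could be checked. The rearrangements of other T cells were rare: TRAV11 joined to TRAJ18, the invariant natural killer T cell receptor, reached at most 0.0485% of TCRα clonotypes in a mouse. TRAV1 joined to TRAJ33, the mucosal invariant T cell receptor, reached at most 0.152%. TRDV genes took 0.502% to 0.981%, but they were counted within TCRα chains and so do not measure other T cells. The groups overlapped in all of these shares.

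β5t is a catalytic subunit of the thymoproteasome, a proteasome form found in cortical thymic epithelial cells, where it shapes the peptides that MHC class I molecules show to immature thymocytes during positive selection. A TCRα chain is built by joining a V to a J segment and a TCRβ chain by joining V, D and J segments, with bases trimmed from the ends and non-templated (N) bases added between them, and the joined stretch encodes the third complementarity-determining region (CDR3) that contacts the peptide. TCRα loci rearrange more than once in a thymocyte, first with J segments at the upstream end of the J cluster and then with J segments further downstream, until the cell is positively selected or dies.

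In what follows a clonotype is a distinct combination of V gene, J gene and nucleotide CDR3, counted once per mouse, and only in-frame CDR3 without a stop codon were counted. Per mouse, WT libraries held 2589 to 18470 TCRα and 931 to 18080 TCRβ clonotypes, and β5t-KO libraries held 656 to 8168 and 393 to 6686. In-frame unique molecules, which count tagged cDNA molecules rather than amplified reads, numbered 71357 to 555786 in WT and 74491 to 161888 in β5t-KO for TCRα, and 8088 to 124170 and 7669 to 43803 for TCRβ. WT replicate 1 and β5t-KO replicate 2 were the sparsest of their groups. Clonotypes show how many different rearrangements carry a feature, and molecules also weigh each by its transcripts, so that expanded clones count more. In these bulk libraries more cells of a clone and more transcript per cell cannot be told apart.

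The sequences on which the results turn are shown first, with germline segments from the GRCm39 reference. The J segment TRAJ28 lies at chr14:54429118-54429182 on the plus strand, and the capitals mark the stretch that encodes LPGTGSNRLTF, the end of the 16-residue CDR3α shown under it, from the 1 TRAV and TRAJ pair that stood apart from the use of its V and J genes on clonotypes.
TRAJ28: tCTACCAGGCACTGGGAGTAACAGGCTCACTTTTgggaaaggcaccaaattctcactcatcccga
TRAV12-1 and TRAJ28, start CALSA: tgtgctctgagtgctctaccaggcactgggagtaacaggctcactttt
TRAV12-1 and TRAJ28, start CALSD: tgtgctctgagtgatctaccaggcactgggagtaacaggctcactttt
TRAV12-1 and TRAJ28, start CALSP: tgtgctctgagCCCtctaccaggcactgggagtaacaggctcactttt
In the CDR3 sequences capitals mark bases that the deposited segment boundaries placed in neither segment, here called inserted bases. The boundaries can take a mismatched base into a segment, so the inserted bases are those of the aligner and not a direct count of N addition.

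The J segment TRAJ9 lies at chr14:54446850-54446907 on the plus strand, with the codons of GYKLTF in capitals, and is shown because short CDR3α with this ending were frequent in WT and nearly missing in β5t-KO mice.
TRAJ9: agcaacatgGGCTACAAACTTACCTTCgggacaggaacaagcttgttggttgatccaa
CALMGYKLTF: tgtgctctgatgggctacaaacttaccttc
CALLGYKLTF: tgtgctctgTtgggctacaaacttaccttc
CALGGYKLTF: tgtgctctgGGgggctacaaacttaccttc
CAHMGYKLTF: tgtgctcacatgggctacaaacttaccttc
The CDR3α with the smallest p among those that rose in β5t-KO mice are shown for contrast, since both use TRAV12-1 down to the last base of its germline end.
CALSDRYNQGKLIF: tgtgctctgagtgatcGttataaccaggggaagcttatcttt
CALSDRYSNNRLTL: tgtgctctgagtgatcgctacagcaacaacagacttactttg

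The D segment TRBD2 lies at chr6:41519097-41519110 on the plus strand, and capitals mark the reading frame that encodes Asp-Trp-Gly (DWG). It is shown because tryptophan was the central CDR3β residue that rose in β5t-KO mice. Under it stand CDR3β that hold DWG, with the codons of this motif in capitals. In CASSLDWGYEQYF the last of these bases is T and not the G of TRBD2. These CDR3β are examples of the motif, not sequences named as higher in β5t-KO mice. In CPM (defined below with the single CDR3), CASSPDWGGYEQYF averaged 926 in WT and 794 in β5t-KO mice, and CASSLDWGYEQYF averaged 228 and 721. The TRBV12-1 sequence averaged 35.5 and 1938 CPM. It stood at 0, 6650, 324 and 779 CPM in β5t-KO replicates 1 to 4. The groups overlapped for all of these CDR3β.
TRBD2: ggGACTGGGGGggc
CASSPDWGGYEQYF: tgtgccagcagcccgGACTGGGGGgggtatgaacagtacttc
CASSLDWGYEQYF: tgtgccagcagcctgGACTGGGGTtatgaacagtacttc
TRBV12-1 and TRBJ2-4, start CASSLDWG: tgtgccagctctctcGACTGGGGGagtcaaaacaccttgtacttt

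Use of TRAJ segments shifted along the chromosome. In β5t-KO mice 7 TRAJ genes rose (16.3%) and 7 fell (16.3%) among 43 tested on clonotypes, which is 32.6% of all. The 14 upstream genes (numbered 40 and above) held 5 of the genes that rose and none that fell, and the 14 downstream genes (21 and below) held 6 of those that fell and none that rose. All 14 upstream genes had a log2 fold change above 0, with a median of 0.21, whereas 1 of 14 downstream genes did, with a median of -0.32. The median over all 43 genes was 0.06. By edgeR's quasi-likelihood test with Benjamini-Hochberg adjustment, 19 TRAJ genes had an unadjusted p under 0.05.

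TRAJ52, near the upstream end of the cluster, changed most. It took 1.08%, 1.12%, 1.36% and 1.04% of TCRα clonotypes in WT replicates 1 to 4 and 2.20%, 3.66%, 2.11% and 2.52% in β5t-KO replicates 1 to 4. All β5t-KO mice were above all WT mice, and β5t-KO replicate 2, the sparsest, was the highest. The fitted log2 fold change was 1.00 ± 0.14 (SE, edgeR adjusted p = 6.46e-06), and it was 1.15 on molecules. TRAJ57, TRAJ50, TRAJ49 and TRAJ56 were the other upstream genes that rose, by log2 fold changes of 0.39 to 0.52, and the mice of the groups did not overlap for TRAJ57 and TRAJ50. On molecules TRAJ49 and TRAJ56 no longer passed (edgeR adjusted p = 0.139 and 0.0532).

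Of the genes that fell, TRAJ12 took 3.48%, 3.88%, 3.28% and 3.71% of clonotypes in the WT mice and 2.78%, 1.83%, 2.58% and 2.81% in the β5t-KO mice. Every β5t-KO mouse was below every WT mouse, with a log2 fold change of -0.44 ± 0.09 (edgeR adjusted p = 0.00113) on clonotypes and -0.84 on molecules. TRAJ6, TRAJ17 and TRAJ15 fell by 0.57, 0.39 and 0.34 on the log2 scale, with groups that overlapped only for TRAJ15. On molecules TRAJ6 did not pass (edgeR adjusted p = 0.0585). In the middle of the cluster TRAJ31 fell from 4.23% ± 0.136 to 3.40% ± 0.325 (SD, n = 4 each), also without overlap. Groups of mice did not overlap for 8 of the 43 TRAJ genes.

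**Figure D1:**
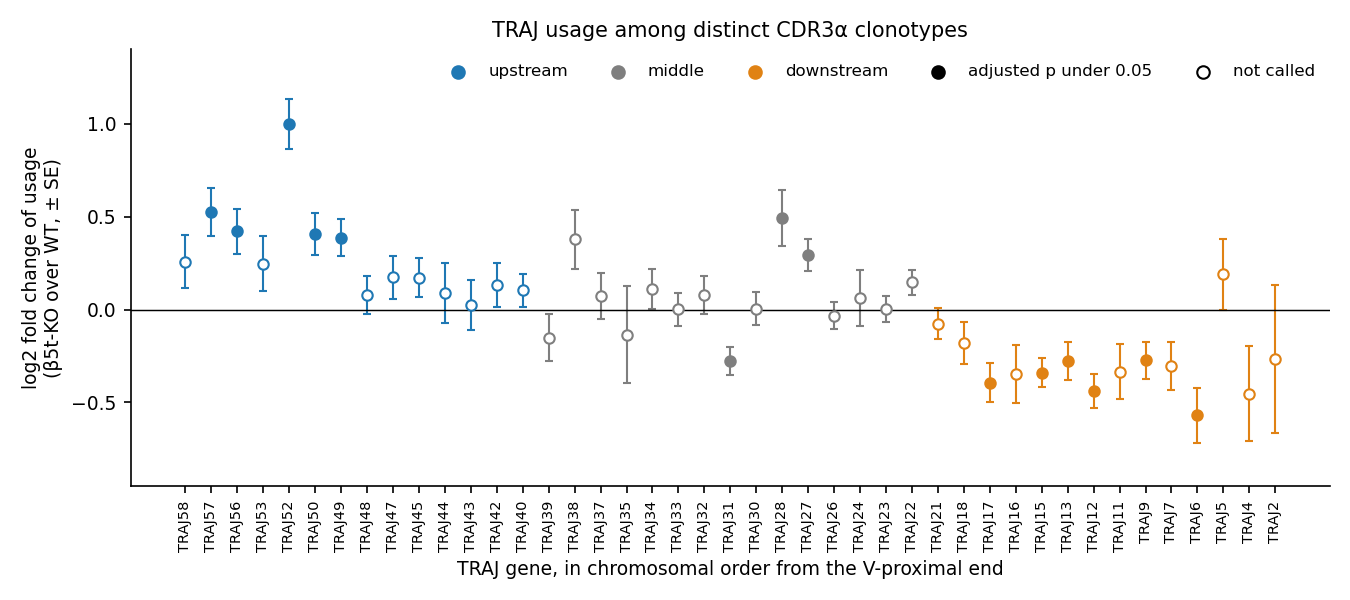
Log2 fold change (β5t-KO over WT, bars are SE of the edgeR fit) of each TRAJ gene on clonotypes, in chromosomal order from the upstream to the downstream end, coloured by upstream, middle and downstream group, with filled points for genes called at an adjusted p under 0.05. Every upstream gene sits above 0, TRAJ52 highest at 1.00, and all but 1 of the 14 downstream genes sit below it.

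Summed over the upstream genes, the share of clonotypes was 23.4%, 22.7%, 25.4% and 21.5% in WT replicates 1 to 4 and 29.1%, 29.7%, 28.1% and 26.0% in β5t-KO replicates 1 to 4. The downstream share was 32.2%, 33.4%, 31.4% and 36.2% in WT and 27.4%, 26.4%, 26.8% and 28.5% in β5t-KO mice. The groups did not overlap in either share. An exact permutation test over the mice, two-sided, gave p = 0.0286 for both, the smallest that 4 against 4 mice allow. Adjusted by Benjamini-Hochberg over the 24 per-mouse measures tested, it was 0.137. On molecules the downstream shares of 34.0% and 26.7% did not overlap, and the upstream shares of 21.2% and 25.1% did. The middle shares of molecules, 44.8% and 48.2%, did not overlap either (exact permutation p = 0.0286, adjusted p = 0.105), and those of clonotypes, 43.5% and 44.5%, did. On molecules the TRAJ gene with the smallest p, named after the values had been seen, was TRAJ23 of the middle group, the J of the abundant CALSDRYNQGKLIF shown above. It took 5.00% ± 0.341 of molecules in WT and 9.15% ± 1.10 in β5t-KO mice (log2 fold change 0.87 ± 0.10, edgeR adjusted p = 1.53e-07), and 4.54% and 4.76% of clonotypes (edgeR adjusted p = 0.983).

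The shift in J use was described further with measures chosen after the values had been seen, which were not tested. The upstream share was higher in β5t-KO mice in 12 of 13 V subgroups with at least 10 clonotypes in every library. Among out-of-frame and stop-containing TCRα clones, 64 to 2050 per library, the upstream share was 21.7% ± 2.49 in WT and 23.4% ± 2.77 in β5t-KO mice (SD, n = 4 each), and TRAJ52 took 1.93% ± 1.37 and 1.59% ± 1.17. The groups overlapped for all of these non-productive shares.

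Of the TRAV genes, 7 of 93 tested passed on clonotypes (7.53%), 5 higher (5.38%) and 2 lower (2.15%). The count was 2 without WT replicate 2 or β5t-KO replicate 1, and 3 without WT replicate 4 or β5t-KO replicate 4. TRAV14-1 took 0.927%, 1.34%, 1.38% and 1.35% of clonotypes in WT and 2.43%, 1.22%, 2.57% and 3.33% in β5t-KO mice, a log2 fold change of 0.97 ± 0.16 (edgeR adjusted p = 3.77e-05). β5t-KO replicate 2 lay inside the WT range, and the other three β5t-KO mice lay above it. TRAV13-4-DV7, a segment that can also join in TCRδ chains, took 0.317% ± 0.0597 in WT and 0.733% ± 0.240 in β5t-KO mice without overlap (log2 fold change 1.32 ± 0.22, edgeR adjusted p = 4.28e-05). Both also rose on molecules, by 1.07 and 1.47 on the log2 scale.

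The largest V gene, TRAV12-1, took 20.3%, 20.1%, 17.2% and 16.9% of clonotypes in WT and 14.1%, 13.7%, 15.2% and 14.1% in β5t-KO mice. All β5t-KO mice were lower (log2 fold change -0.38 ± 0.11, edgeR adjusted p = 0.0311), but on molecules the difference was -0.03 (edgeR adjusted p = 0.868). The call was also lost without WT replicate 1 or 2, or without β5t-KO replicate 1, 2 or 4, with adjusted p from 0.0819 to 0.145. TRAV12-1 reads are hard to tell from those of its duplicated copies, and 83.0% of its clones listed several V genes, so V genes were pooled into subgroups for pairing. TRAV7-3 fell, and TRAV17, TRAV13D-2 and TRAV6-6 rose, of which TRAV13D-2 and TRAV6-6 had several V genes listed for 72.6% and 96.7% of clones. These calls held in 14, 8, 10 and 9 of 18 alternatives, and on molecules only that of TRAV7-3 did (edgeR adjusted p = 0.0429, against 0.144, 0.461 and 0.0593). Of 21 subgroups 4 passed (19%). TRAV12 fell by 0.29 on the log2 scale, the only one lower (4.76%), and TRAV17, TRAV6 and TRAV13 rose by 0.57, 0.42 and 0.38 (14.3%). None of these 4 passed on molecules (edgeR adjusted p = 0.366, 0.170, 0.0864 and 0.241 in that order), and the count was 2 without β5t-KO replicate 1 and 0 without β5t-KO replicate 4.

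Among pairs of a TRAV subgroup with a TRAJ gene, 15 rose (2.53%) and 11 fell (1.85%) of 594 tested (4.38%), and 89 had an unadjusted p under 0.05. The pairs that rose used upstream J genes in 8 cases, middle ones in 7 and no downstream one, and the pairs that fell used downstream J genes in 9 cases, middle ones in 2 and no upstream one. By V subgroup, TRAV12 had 7 pairs that fell and 1 that rose among 43, TRAV13 had 4 that rose among 41 and none that fell, and TRAV14 had 4 that rose and 1 that fell among 43. Without β5t-KO replicate 1 the count was 6 pairs, without β5t-KO replicate 3 it was 9, and without WT replicate 4 it was 16.

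TRAV13 with TRAJ52 and TRAV17 with TRAJ52 rose by 1.67 ± 0.35 and 1.65 ± 0.37 on the log2 scale (edgeR adjusted p = 0.000407 and 0.00145), from 0.0945% and 0.0810% of clonotypes to 0.327% and 0.304%. The first call held in 18 of 18 alternatives, and the second in 13, with an edgeR adjusted p of 0.266 on molecules. TRAV12 with TRAJ31 was the pair with the smallest p among those that fell. It took 1.82%, 1.88%, 1.46% and 1.22% in WT and 0.908%, 0.610%, 0.857% and 0.574% in β5t-KO mice, with no overlap (log2 fold change -0.87 ± 0.17, edgeR adjusted p = 5.65e-05). TRAV12 with TRAJ12, TRAJ6 and TRAJ9 fell by 0.74, 0.91 and 0.75 on the log2 scale. TRAV12 with TRAJ7 fell by 0.68 on clonotypes but was at 0.60 on molecules (edgeR adjusted p = 0.190), and this pair holds the abundant CALSDRYSNNRLTL shown above.

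**Figure D2:**
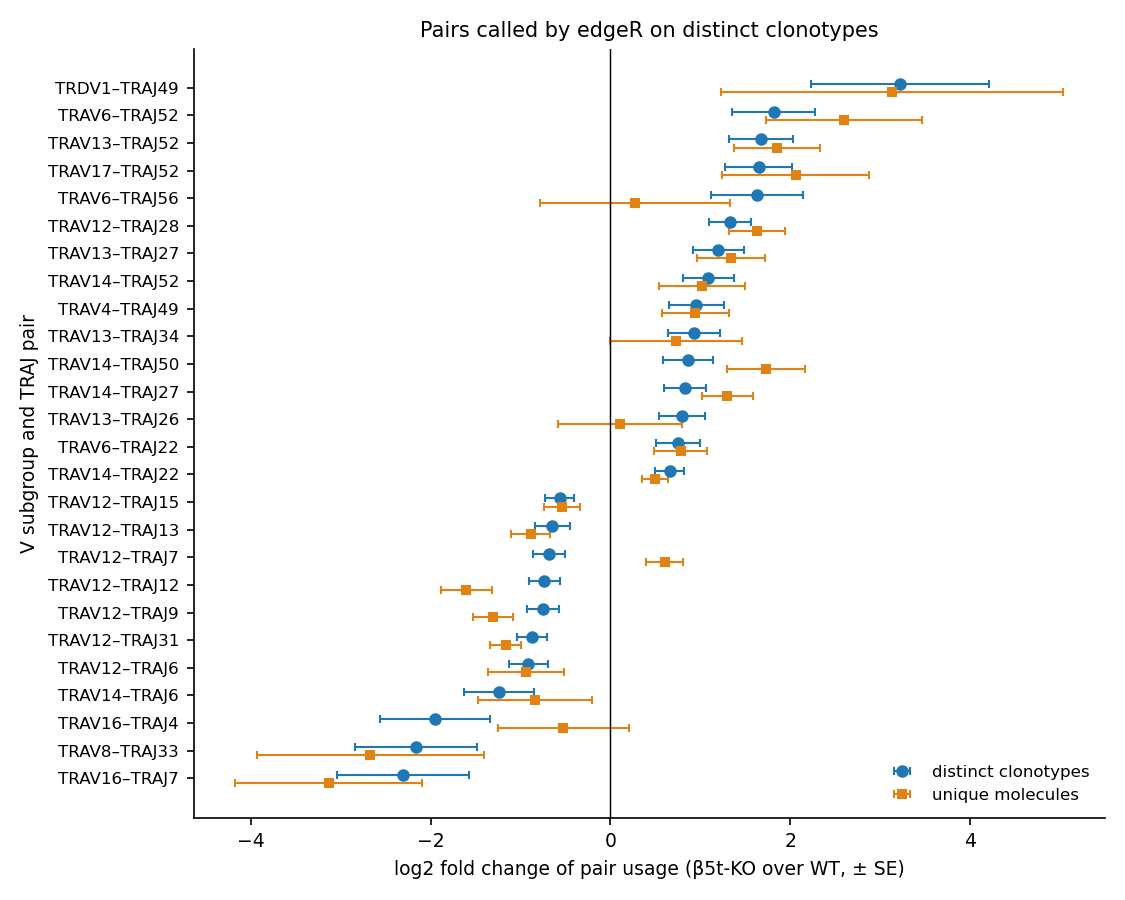
Log2 fold change (β5t-KO over WT, bars are SE of the edgeR fit) of the 26 TRAV subgroup and TRAJ pairs called on clonotypes, with the value on molecules beside it. TRAV12 with TRAJ28 is among the pairs that rose on both counts, and TRAV12 with TRAJ7 is on opposite sides of 0.

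Few pairs stood apart from the use of their V and J genes. When each pair was tested against the change of its V subgroup and its J gene, 1 of 594 passed on clonotypes (0.168%), TRAV12 with TRAJ28, and 53 had an unadjusted p under 0.05. Its log2 fold change was 1.33 ± 0.23 in all and 0.98 ± 0.19 beyond V and J use (edgeR adjusted p = 0.000403), and it passed in all 14 alternatives, with adjusted p from 0.000245 to 0.0331. The pair took 0.309%, 0.194%, 0.287% and 0.217% of clonotypes in WT replicates 1 to 4 and 0.674%, 0.305%, 0.637% and 0.516% in β5t-KO replicates 1 to 4. β5t-KO replicate 2, with 2 such clonotypes, fell just below WT replicate 1, and the other β5t-KO mice were above all WT mice. On molecules the shares were 0.277%, 0.186%, 0.302% and 0.191% in WT and 0.807%, 0.510%, 0.905% and 0.732% in β5t-KO mice, which did not overlap.

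CDR3α of 16 residues made up a larger share of TRAV12 with TRAJ28 clonotypes in β5t-KO mice. Such CDR3α, as in the CDR3 that start CALSA, CALSD and CALSP above, made up 37.5%, 50.0%, 46.8% and 42.5% of the 8, 12, 47 and 40 clonotypes in WT, and 76.1%, 100%, 86.5% and 100% of the 46, 2, 52 and 9 clonotypes in β5t-KO mice. CDR3α of any length that end in LPGTGSNRLTF made up 37.5% to 66.7% in WT and 50% to 100% in β5t-KO mice, which overlapped. TRAJ28 with other V subgroups took 0.550% ± 0.0205 and 0.441% ± 0.140 of clonotypes in WT and β5t-KO mice, which overlapped. Among these, 14, 35, 86 and 105 clonotypes in WT and 41, 2, 42 and 6 in β5t-KO mice, the share of 16 residues also differed without overlap, 17.6% ± 8.33 against 37.1% ± 8.70 (SD, n = 4 each). These shares within TRAJ28 were chosen after the values had been seen and were not tested.

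CDR3α were longer in β5t-KO mice. Of 14 length classes 4 passed on clonotypes (28.6%), 3 lower with 10, 11 and 12 residues (21.4%) and 1 higher with 16 residues (7.14%), and mice of the groups did not overlap in any of these. CDR3α of 10 residues made up 2.24%, 2.21%, 2.04% and 1.78% of clonotypes in WT and 1.08%, 0.762%, 1.05% and 0.746% in β5t-KO mice. Every β5t-KO mouse was below every WT mouse, with a log2 fold change of -0.96 ± 0.15 on clonotypes (edgeR adjusted p = 1.72e-06) and -1.65 on molecules. The classes of 11 and 12 residues fell from 5.29% and 14.9% to 3.09% and 12.5%. CDR3α of 16 residues made up 6.26%, 5.92%, 6.60% and 6.69% in WT and 8.14%, 10.1%, 8.15% and 8.78% in β5t-KO mice, a log2 fold change of 0.36 ± 0.06 (edgeR adjusted p = 6.58e-06). All 4 classes held in all 18 alternatives.

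The mean CDR3α length was 13.5, 13.5, 13.6 and 13.6 residues in WT and 13.8, 13.9, 13.8 and 13.8 residues in β5t-KO mice, a difference of 0.238 residues without overlap. On average 2.16 ± 0.0596 bases were trimmed from V and 2.97 ± 0.00440 from J in WT, against 1.84 ± 0.131 and 2.77 ± 0.0754 in β5t-KO mice (SD, n = 4 each), again without overlap. The exact permutation p was 0.0286 for each of these 3 measures (adjusted p = 0.137). Inserted bases averaged 2.26 ± 0.125 in WT and 2.25 ± 0.050 in β5t-KO mice (exact permutation p = 0.914), and none of the 11 classes of inserted bases in CDR3α passed (0%), with 2 at an unadjusted p under 0.05 by edgeR and none called by DESeq2.

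Further measures, chosen after the values had been seen and not tested, show where the longer CDR3α lay. In TRAV12 clonotypes, 151 to 4770 per mouse, the mean length was 13.4, 13.3, 13.4 and 13.5 residues in WT and 14, 14.2, 14 and 14.1 in β5t-KO mice. In the other V subgroups it was 13.63 and 13.72 on average, also without overlap. TRAV12 CDR3α were thus shorter than those of the other V subgroups in every WT mouse and longer in every β5t-KO mouse. CDR3α of 10 to 12 residues made up 29.8% ± 1.93 of TRAV12 clonotypes in WT and 13.2% ± 2.52 in β5t-KO mice (SD, n = 4 each), and 32.3% and 9.49% of TRAV12 molecules. In the other V subgroups the shares of clonotypes were 19.1% and 17.5%, which did not overlap either.

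**Figure D3:**
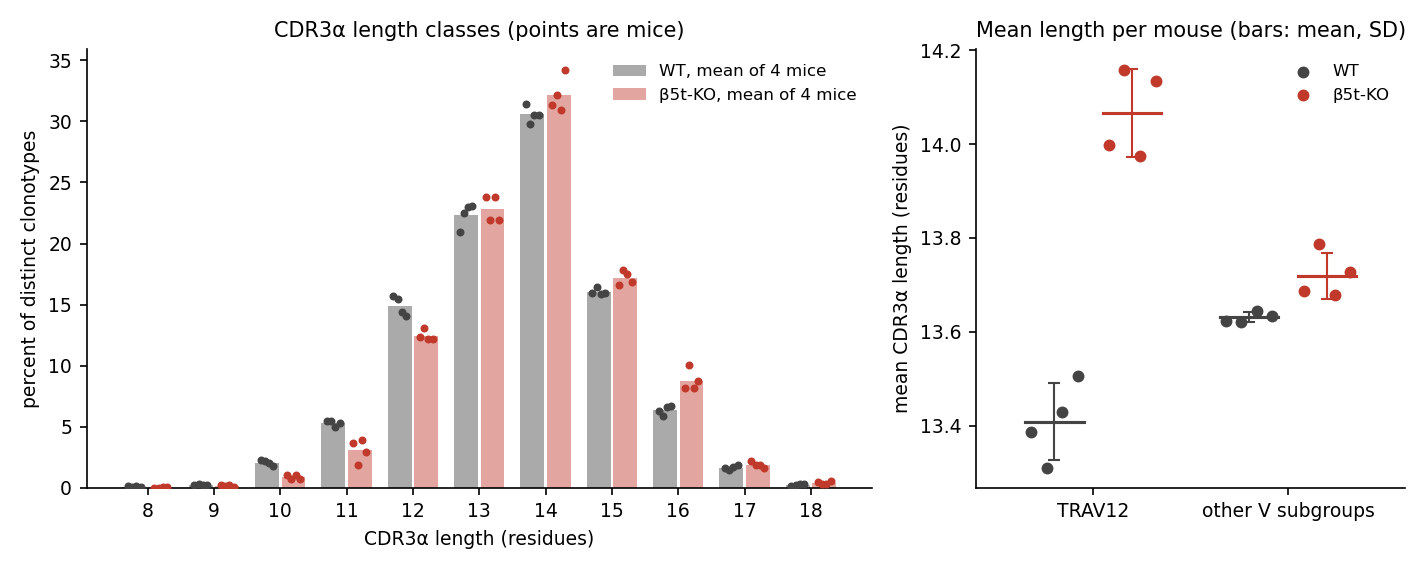
Left, percent of TCRα clonotypes in each CDR3α length class in residues, bars for group means and points for the 4 mice of each group. Right, mean CDR3α length per mouse in TRAV12 and in other V subgroups, with the group mean and SD. The WT bars are higher at 10 to 12 residues and the β5t-KO bars at 16, and TRAV12 means of 13.3 to 13.5 in WT stand below 14 to 14.2 in β5t-KO mice.

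TRAV12 clonotypes had lost 2.63 ± 0.122 bases from V in WT and 1.68 ± 0.301 in β5t-KO mice without overlap, whereas the other V subgroups had lost 1.97 ± 0.0529 and 1.89 ± 0.0822, which overlapped. From J, TRAV12 clonotypes had lost 3.33 and 3.01 bases, which overlapped, and the other V subgroups 2.82 and 2.70, which did not. Inserted bases in TRAV12 averaged 2.35 in both groups. CDR3α that began with CALSD made up 28% ± 1.4 of TRAV12 clonotypes in WT and 42.4% ± 6.28 in β5t-KO mice. The CALSD sequences shown above had lost no base from V, and neither had the one that starts CALSA. Of TRAV12 molecules, CALSD sequences made up 32.5% and 58.3%, which include the abundant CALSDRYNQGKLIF and CALSDRYSNNRLTL. The part of these abundant sequences was not tested. TRAJ use was also held equal across mice, over only those TRAJ genes found in every library for the V genes in question. TRAV12 lengths were then 13.46 in WT and 13.92 in β5t-KO mice without overlap. Those of other V subgroups were 13.60 and 13.65 with overlap. The CDR3α of non-productive TRAV12 clones, 8 to 341 per library, averaged 41.0 ± 0.604 nucleotides in WT and 41.4 ± 1.06 in β5t-KO mice, which overlapped. Mean length was higher in β5t-KO mice for 36 of 39 TRAJ genes and 12 of 13 V subgroups.

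Short TRAV12 CDR3α that end in GYKLTF, shown above with TRAJ9, are given as a description. The ending was chosen after the values had been seen, from sequences frequent in WT, and gives no support to the length shift. WT mice held 16, 21, 36 and 40 distinct clonotypes of 10 residues with this ending, and β5t-KO mice held 0, 0, 2 and 1. They made up 0.978%, 0.574%, 0.656% and 0.702% of TCRα molecules in WT and 0%, 0%, 0.00518% and 0.0480% in β5t-KO mice. The groups did not overlap. WT replicate 1, the sparsest WT library, held 2589 TCRα clonotypes, and β5t-KO replicates 1 to 4 held 6828, 656, 8168 and 1743. The part of depth in the counts was not tested.

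Central CDR3α residues, counted after 4 residues were left out at each end, changed little on clonotypes. Of 20 amino acids 2 passed (10%), threonine higher (5%) and glycine lower (5%). Threonine made up 7.09% ± 0.0985 of central residues in WT and 7.72% ± 0.341 in β5t-KO mice (log2 fold change 0.14 ± 0.03, edgeR adjusted p = 0.000542), but it did not pass on molecules (edgeR adjusted p = 0.451). Glycine made up 21.3% ± 0.242 and 20.4% ± 0.585 (log2 fold change -0.07 ± 0.02, edgeR adjusted p = 0.00505), and it passed on molecules too. Arginine, aspartate and glutamine, named after the values had been seen, passed on molecules only. They took 3.00%, 5.63% and 3.93% in WT and 3.93%, 6.59% and 4.38% in β5t-KO mice. Their log2 fold changes were 0.39, 0.23 and 0.15 (edgeR adjusted p = 2.96e-09, 4.31e-06 and 0.00373). The abundant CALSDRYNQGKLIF holds each of these residues in its centre, and averaged 8169 CPM in WT and 53335 CPM in β5t-KO mice (CPM is defined below). CALSDRYSNNRLTL holds the arginine and the aspartate. The part of such abundant sequences in the shares and hydropathy of molecules was not tested. Mean central hydropathy on molecules was -1.29 and -1.35 without overlap (exact permutation p = 0.0286, adjusted p = 0.105). Hydrophobic residues at both positions 6 and 7, a feature linked to self-reactivity in CDR3β, were held by 1.61% of WT and 1.65% of β5t-KO CDR3α (exact permutation p = 0.543) and by 1.37% and 1.54% of CDR3β (exact permutation p = 0.257). A central cysteine was held by 0.168% and 0.290% of CDR3α (exact permutation p = 0.257).

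In TCRβ, no V or J gene was called by edgeR on clonotypes. By that test none of 12 TRBJ genes was called on clonotypes (0%), with 3 at an unadjusted p under 0.05, and DESeq2 called 2. TRBJ2-7, the most used, took 22.5% in WT and 23.1% in β5t-KO mice, and TRBJ2-1 took 13.5% and 14.8% (log2 fold change 0.14, edgeR adjusted p = 0.0959). The TRBJ2 cluster took 71.2% ± 1.83 and 72.2% ± 1.05 of clonotypes (SD, n = 4 each, exact permutation p = 0.400). None of 23 TRBV genes (0%), none of 248 TRBV and TRBJ pairs (0%) and none of those pairs beyond V and J use was called by edgeR. Unadjusted p was under 0.05 for 2 genes, 9 pairs and 10 pairs, and DESeq2 called neither genes nor pairs. CDR3β length was 13.9 residues on average in both groups (exact permutation p = 0.800), and none of 14 length classes passed by edgeR (0%), with 1 at an unadjusted p under 0.05 and none called by DESeq2.

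CDR3β did change in residues. Of 20 amino acids 2 passed (10%), tryptophan higher (5%) and glutamate lower (5%). Tryptophan made up 2.00%, 2.24%, 2.41% and 2.31% of central CDR3β residues in WT and 3.18%, 2.8%, 3.07% and 2.89% in β5t-KO mice. All β5t-KO mice were above all WT mice, with a log2 fold change of 0.41 ± 0.07 on clonotypes (edgeR adjusted p = 5.2e-05) and 0.45 on molecules, and the call held in all 18 alternatives. Glutamate made up 4.93% ± 0.228 and 4.55% ± 0.260, which overlapped (log2 fold change -0.13 ± 0.04, edgeR adjusted p = 0.0319), and the call was lost on molecules and without WT replicate 2 or β5t-KO replicate 1 or 4 (edgeR adjusted p = 0.313, 0.106, 0.145 and 0.0652).

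Where tryptophan lay was described with measures chosen after the values had been seen, with no test. At least 1 central tryptophan was held by 11.7%, 13%, 13.8% and 13.5% of WT CDR3β clonotypes and by 18.3%, 16.3%, 17.5% and 16.6% of those of β5t-KO mice. The motif DWG, encoded by the TRBD2 frame shown above, was held by 5.65% ± 0.225 and 7.39% ± 0.344 (SD, n = 4 each). TRBD2 was assigned to 33.4% and 35.4% of CDR3β, and among these the share with a central tryptophan was 30.5% ± 2.16 and 38.3% ± 2.95. Groups did not overlap in any of these shares. Among CDR3β assigned TRBD1 the shares with tryptophan were 4.39% and 5.66%, and without an assigned D they were 3.92% and 5.53%, and these overlapped. The share was higher in β5t-KO mice in 15 of 16 TRBV genes with at least 10 clonotypes in every library. By position it was 3.59% and 4.83% at residue 6, and 5.33% and 7.21% at residue 7.

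CDR3β without inserted bases were also more frequent in β5t-KO mice by the fit. They made up 17.5%, 15.2%, 16.8% and 14.6% of clonotypes in WT and 20.2%, 20.1%, 19% and 16.1% in β5t-KO mice. β5t-KO replicate 4 lay within the WT range and the other three β5t-KO mice above it. This was the 1 class called of 11 (9.09%), with a log2 fold change of 0.28 ± 0.05 (edgeR adjusted p = 1.84e-06), but on molecules it was 0.22 (edgeR adjusted p = 0.0691), and the exact permutation test over mice gave p = 0.0857 (adjusted p = 0.206). A central tryptophan was more frequent with and without inserted bases: 14.8% and 21.6% in WT and β5t-KO CDR3β without any, and 12.7% and 16.1% in those with some, none overlapping.

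**Figure D4:**
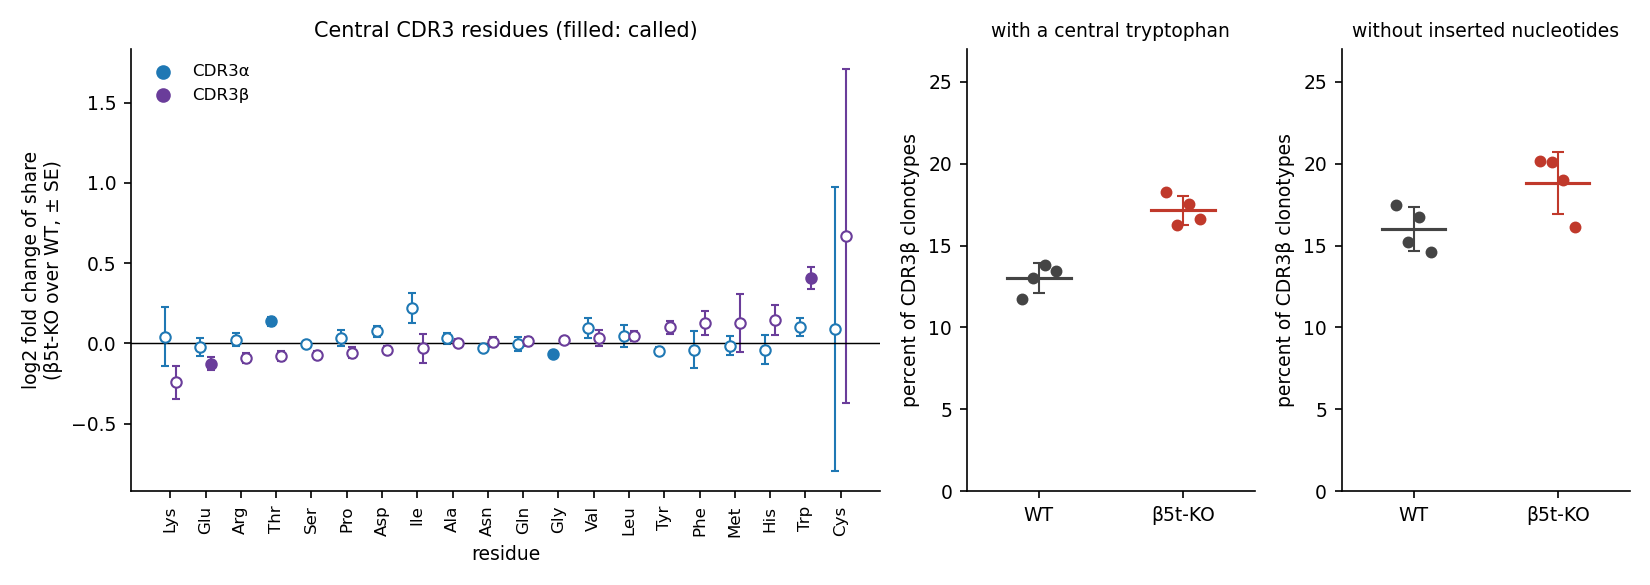
Left, log2 fold change (β5t-KO over WT, bars are SE of the edgeR fit) of the 20 amino acids in central CDR3α and CDR3β on clonotypes, filled where called; right, percent of CDR3β clonotypes with a central tryptophan and without inserted bases, a point per mouse with the group mean and SD. Tryptophan stands at 0.41 in CDR3β, and the 4 β5t-KO mice lie between 16.3% and 18.3% with tryptophan, all above the WT mice at 11.7% to 13.8%.

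Single CDR3 sequences were tested by molecules (CPM, molecules of the CDR3 per 1000000 in-frame molecules of the library), where at least 10 CPM were present in at least 3 libraries of a group. Of 1676 CDR3α 411 passed (24.5%), 28 higher (1.67%) and 383 lower (22.9%), and of 323 CDR3β 84 passed (26%), 14 higher (4.33%) and 70 lower (21.7%). Among the sequences that fell, 361 CDR3α and 68 CDR3β had no molecule in any β5t-KO library, and β5t-KO libraries held fewer clonotypes. A sequence absent from β5t-KO mice could enter only through WT, where it was high, so the counts are a description and give no support to a direction. The part of depth in these counts was not tested. Groups did not overlap for 120 of the tested CDR3α (7.16%), 12 higher and 108 lower, and for 4 of the tested CDR3β (1.24%), all lower. These counts depended on single libraries. For CDR3α they were 175, 199 and 158 without WT replicate 2, 3 or 4, and 88, 57 and 48 without β5t-KO replicate 1, 2 or 4. For CDR3β they were 47 and 26 without WT replicate 1 or 2, 19 and 17 without β5t-KO replicate 1 or 2, and 0 without β5t-KO replicate 3 or 4.

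Among CDR3α that rose without overlap, the 4 with the smallest p all used TRAV12-1, and 3 of them began with CALSD. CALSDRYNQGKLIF stood at 8591, 7830, 12051 and 4203 CPM in WT and at 55594, 54033, 42792 and 60922 CPM in β5t-KO mice. Every β5t-KO mouse was far above every WT mouse, with a log2 fold change of 2.71 ± 0.34 (edgeR adjusted p = 1.7e-12). CALSDRYSNNRLTL, with TRAJ7, rose from 2181 ± 1178 to 19045 ± 6847 CPM (SD, n = 4 each). A CDR3 of TRAV12-1 and TRAJ15 that starts CALSDRR, with 5 inserted bases, stood at 0, 0, 0 and 41.4 CPM in WT and at 1483, 5517, 3289 and 2165 CPM in β5t-KO mice. The TRAV12-1 with TRAJ28 sequence that starts CALSA, shown above, stood at 0, 387, 267 and 61.2 CPM in WT and at 1662, 5101, 1045 and 1646 CPM in β5t-KO mice. Its edgeR adjusted p was 0.0396, and it passed in 3 of 14 alternatives, with adjusted p from 0.0133 to 0.306.

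Among CDR3α that were lower without overlap, the 4 with the smallest p were the GYKLTF sequences shown above, all TRAV12-1 with TRAJ9. They entered through WT, where they were frequent, and are given as a description. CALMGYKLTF stood at 3742, 2447, 2662 and 3050 CPM in WT and at 0, 0, 34.5 and 0 CPM in β5t-KO mice. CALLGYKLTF, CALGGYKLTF and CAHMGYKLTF were listed in all 4 WT libraries, at 549 ± 54.0, 518 ± 396 and 722 ± 59.6 CPM, and in no β5t-KO library. With molecules summed over the libraries of each group and a floor of 3 molecules over the β5t-KO group, they were at least 96.7-fold, 103.6-fold and 117.9-fold lower, and the absence allows a share of up to 0.00059% of β5t-KO molecules, for counting error only.

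The 4 CDR3β that were lower without overlap were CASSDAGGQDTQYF, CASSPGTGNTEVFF, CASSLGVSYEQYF and a TRBV13-2 with TRBJ2-3 sequence that starts CASGDAGG, which used 4 different TRBV genes. They too entered through WT and are given as a description. In that order their edgeR adjusted p was 0.0264, 0.0264, 0.0339 and 0.0339, and the calls held in 11, 10, 6 and 9 of 14 alternatives. None passed with the replicate block (edgeR adjusted p = 0.0925 for each). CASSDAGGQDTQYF stood at 2720, 132, 92.6 and 258 CPM in WT and in no β5t-KO library, at least 10.4-fold lower against the same floor. WT replicate 1, the WT library with the fewest TCRβ molecules, was the highest for 4 of 4, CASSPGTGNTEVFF at 1360, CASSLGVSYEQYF at 1731 and the TRBV13-2 sequence at 495 CPM. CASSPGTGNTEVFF and the TRBV13-2 sequence were at least 7.81-fold and 5.90-fold lower, and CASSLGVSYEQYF was present in 1 β5t-KO library at 36 CPM.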

How the data were processed

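CD8+ T cells were sorted from individual mice, and libraries were made from total RNA with a Takara SMARTer kit for mouse TCR profiling. The authors assembled clones with MiXCR (version and settings are not given in the sources used here) and deposited a table per chain and sample with the read counts and unique molecule counts of each clone, CDR3 sequence, gene hits and segment boundaries. Per the labels, mm10 was the build. The deposited tables hold no coordinates, so segment positions come from GENCODE vM39 on GRCm39.

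A clonotype was the first V gene, first J gene and nucleotide CDR3 of an in-frame clone. Counts of clonotypes per feature were tested with edgeR 4.0.16 in R 4.3.3 (glmQLFit and glmQLFTest, library size normalization, at least 5 counts in at least 4 libraries, Benjamini-Hochberg within a family, threshold 0.05). All 17 libraries of 4 groups shared 1 estimate of the spread (WT, β5t-KO, β5i-KO and BIT, without BIT replicate 3), and the contrast was β5t-KO minus WT. Pairs were also tested with offsets for the use of their V subgroup and J gene. Fold changes are from this fit and percentages are per mouse, so the ratio of mean percentages can differ from the fold change. Per-mouse measures were compared with exact permutation tests, two-sided. Single CDR3 were tested on unique molecules. The scripts were tested on simulated data.

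Named features were those called with the smallest p, at most 10 per family (5 in each direction for pairs), and named CDR3 were at most 4 per chain and direction among those whose groups did not overlap. Members, lists and tests were chosen with earlier results of these data known. Alternatives were unique molecules, TMM, DESeq2 1.42.0, no filter, only the 8 libraries, clones of at least 2 molecules, thinning to the shallowest library, a replicate block, reads, a stricter recurrence filter and leaving out each replicate. Leaving out WT replicate 1 and β5t-KO replicate 2 together was added after seeing the data. Replicate numbers were not taken to pair the mice. Depth limits the precision: single clonotypes of β5t-KO replicate 2 are each 0.152% of its TCRα clonotypes. Intervals and floors cover counting error only.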

Additional observations from a re-analysis of the deposited data

Results flagged for a closer look

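Of 152 groups of 4 mice examined, 11 held a mouse that stood far from the rest of its group by Dixon's test. For normally distributed values chance alone gives about 1 in 20 groups. That rate does not apply where only 1 mouse of a group held a CDR3, as in some cases below. WT replicate 4 was high for the TRBJ2 cluster, at 73.9% of TCRβ clonotypes. β5t-KO replicate 4 was low for TRAJ57, at 1.38% of TCRα clonotypes. WT replicate 1, a sparse library, was low for TRAV14-1, at 0.927%, low for TRAV13D-2, at 0.618%, and high for TRAV14 with TRAJ22, at 0.966%.

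Among single CDR3, the TRAV12-1 with TRAJ15 sequence that starts CALSDRR was present in 1 WT library, at 41.4 CPM, and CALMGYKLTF in 1 β5t-KO library, at 34.5 CPM. The TRAV12-1 with TRAJ28 sequence that starts CALSA was high in β5t-KO replicate 2, at 5101 CPM. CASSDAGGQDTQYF was high in WT replicate 1, at 2720 CPM. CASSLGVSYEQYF was high in WT replicate 1, at 1731 CPM, and present in 1 β5t-KO library, at 36 CPM.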

How the results depend on the processing

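Of 902 recomputed values of named genes, pairs, classes and sequences, 776 kept their direction and side of the threshold, 123 kept their direction but no longer passed, and 3 turned direction. On molecules TRAV12 with TRAJ7 was at 0.60 and, without WT replicate 1 and β5t-KO replicate 2, at 0.88, where TRAV12-1 was at 0.025. TRAJ52, TRAV14-1, TRAV13-4-DV7, TRAV12 with TRAJ28, the 4 CDR3α length classes and CDR3β tryptophan passed under all alternatives run. The causes of the changes below were not tested.

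Counts of calls moved by more than 1.5 times as follows. On molecules they were 4 TRAV genes, 1 TRAV subgroup (TRAV16, lower), 14 pairs, 7 CDR3α length classes, 4 CDR3α and 1 CDR3β residues, 3 CDR3α and 0 CDR3β insertion classes, and 4 pairs beyond V and J use. On molecules without WT replicate 1 and β5t-KO replicate 2 they were 2 TRBV genes, 13 pairs and 5 CDR3α residues. By DESeq2 they were 2 TRBJ genes, 7 TRAV subgroups, 13 pairs, 1 CDR3α and 1 CDR3β residue, 241 CDR3α and 33 CDR3β sequences. Thinned to the shallowest library they were 2 TRBJ genes, 14 pairs, 7 CDR3α length classes and 4 CDR3β residues. With clones of at least 2 molecules they were 3 TRBJ genes and 2 CDR3β insertion classes. Without a filter 15 pairs passed, with TMM 1 CDR3β residue, and in the fit of the 8 libraries 1 CDR3β length class and 4 CDR3β residues. On reads 240 CDR3α passed, and with 10 CPM in all 4 libraries of a group 84 CDR3α and 5 CDR3β. Leaving out each replicate in turn gave 0 to 1 TRBJ genes, 2 to 7 TRAV genes, 0 to 6 TRAV subgroups, 6 to 23 pairs, 1 to 4 CDR3β residues, 1 to 2 CDR3β insertion classes, 48 to 384 CDR3α and 0 to 64 CDR3β.

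The same replicate number correlated at 0.111, -0.00374, -0.0659 and 0.224 between the groups over 171 genes, so the numbers were not taken to pair the mice, and not every mouse correlated best with its own number. With the replicate block 1 TRBJ gene, 1 TRBV gene, 15 pairs, 2 pairs beyond V and J use, 6 CDR3β residues, 9 CDR3α and 0 CDR3β sequences passed.

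Of 310 recomputed per-mouse differences (β5t-KO minus WT) 24 turned sign, all of measures whose groups overlapped on clonotypes. On molecules they were 0.0402 inserted bases and -0.693 percentage points without inserted bases in CDR3α, -0.0590 in CDR3α hydropathy, -0.155 and -0.0459 percentage points with hydrophobic residues at positions 6 and 7 of CDR3α and CDR3β, and -0.00153 residues in CDR3β length. Thinned they were 0.0479 inserted bases in CDR3α, -0.00554 percentage points with a central cysteine in CDR3β and 0.000803 nucleotide sequences per CDR3β. Leaving out each replicate gave -0.0632 to 0.0307 inserted bases and -0.000244 to 0.0752 percentage points with hydrophobic residues in CDR3α, and in CDR3β -0.0126 to 0.0236 residues, -0.0260 to 0.0347 bases trimmed from J, -0.0335 to 0.113 bases trimmed from V, -0.000320 to 0.0173 in net charge and -0.0329 to 0.0428 percentage points with a cysteine. Without WT replicate 1 and β5t-KO replicate 2 they were 0.0405 and -0.0346 bases trimmed from J and V in CDR3β.

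With 4 mice a group, per-mouse measures could not pass unless many moved together. β5t-KO libraries held fewer clonotypes, so the absence of a single sequence there is limited by depth. Many TRAV genes have near-identical copies, and out-of-frame clones were few.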

Other observations

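β5t-KO replicate 5, which entered no comparison, held 24 in-frame TCRα and 11 in-frame TCRβ clones. Its TCRβ clone with a DWG motif, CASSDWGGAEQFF, had 2 molecules.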
